A study of Homo sapiens with 12 samples.

Results

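The 30 genes described here encode the enzymes of cholesterol synthesis, the regulators and carriers of that pathway, and the enzymes that build, desaturate and elongate fatty acids. They were found by gene name among the 63299 genes of the 2 deposited count tables. The names stood in 32 rows, of which 2 (second copies of ACACA and LSS) had a count of 0 in every library, and the other 30 all passed the filter on low counts. Of the 30 genes, 18 are sterol enzymes and 5 are regulators or carriers, which together form the sterol arm of 23 genes, and 7 form the fatty acid arm.

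RNA was measured by poly(A) RNA-seq in LNCaP-shPRMT5 cells, a line derived from LNCaP, a luminal, androgen-responsive prostate cancer cell line, in which doxycycline (Dox) induces a short hairpin RNA against PRMT5. PRMT5 is an arginine methyltransferase. There were 4 groups of 3 libraries: non-irradiated cells without Dox (non-irradiated controls), non-irradiated cells given 1 µg/mL Dox every 48 h (non-irradiated knockdowns), cells given 2 Gy of radiation without Dox (irradiated controls), and cells given both (irradiated knockdowns), the irradiated cells being harvested 24 h after the dose. All 4 groups carried the hairpin construct and grew in RPMI1640 with 10% fetal bovine serum. No group received Dox without the PRMT5 hairpin, so an effect of Dox itself and that of the knockdown cannot be told apart. Whether the 3 libraries of a group are separate cultures is not given, and the p-values then reflect only the spread among these libraries, which may be technical.

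Cholesterol is made from acetyl-CoA through mevalonate, isoprenoid diphosphates, squalene and a series of sterols, whereas the same acetyl-CoA, carboxylated to malonyl-CoA, feeds fatty acid synthase. Both routes are under the transcription factors SREBP-1 and SREBP-2 (genes SREBF1 and SREBF2), which SCAP escorts out of the endoplasmic reticulum when sterols are low and which INSIG1 holds back when sterols are high. In prostate cancer cells androgen is known to raise the expression of both routes, and FASN is a long-studied marker of the disease.

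The libraries held 14801939 to 33158865 counts. PRMT5 fell to 15.7% of its control mean without irradiation and to 13.8% after it (adjusted p = 2.49e-06 and 1.20e-06, edgeR's quasi-likelihood test), and its 3 knockdown libraries lay below all 3 control libraries in both states. Luminal prostate markers (9 of 9 tested) summed to 6929 to 10420 CPM (counts scaled to library size) in every library, whereas 6 fibroblast markers summed to 12.3 to 26.9 CPM (mostly COL1A1, with COL1A2 at 0), 3 basal epithelial markers to 0.732 to 9.81, 5 adipocyte markers to at most 3.25 (ADIPOQ, FABP4 and LEP at 0) and 5 leukocyte markers to at most 0.551. Both irradiated libraries numbered 1 stood apart from the other libraries of their groups, with root mean square log2 differences of 0.775 and 0.674 against 0.420 to 0.467 for the other 4 irradiated libraries. Values without both of them, an alternative chosen after seeing the data, are given below beside results that they moved. The sum of 10 proliferation genes also differed between libraries: 123 to 381 CPM in non-irradiated controls, 308 to 588 in non-irradiated knockdowns, 426 to 750 in irradiated controls and 265 to 523 in irradiated knockdowns. Its part in the results below was not tested.

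Promoters are shown for members whose levels the results turn on. RefSeq's table (GRCh38.p14) held at least 1 promoter for 26 of the 30 genes and none for FASN, ACAT2, FDFT1 and SQLE. Each window ran from 250 bases before to 50 after a start of the gene. The stretches printed are the parts of those windows that lie outside the exons of the gene annotation, read 5′ to 3′ on the strand of the gene. Capitals mark CCAAT, the letters bound by NF-Y, a factor known to act beside SREBP, or ATTGG, the same letters on the other strand.
MSMO1, chr4:165327419-165327622 (+): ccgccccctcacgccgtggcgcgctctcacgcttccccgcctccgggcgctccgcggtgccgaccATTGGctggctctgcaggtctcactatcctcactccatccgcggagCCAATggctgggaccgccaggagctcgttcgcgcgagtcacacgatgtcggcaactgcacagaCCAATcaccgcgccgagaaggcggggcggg
HMGCS1, chr5:43313513-43313662 (-): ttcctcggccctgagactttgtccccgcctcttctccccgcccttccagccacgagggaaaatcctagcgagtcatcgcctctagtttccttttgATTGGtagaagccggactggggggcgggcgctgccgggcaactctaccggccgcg
NSDHL, chrX:152830813-152830966 (+): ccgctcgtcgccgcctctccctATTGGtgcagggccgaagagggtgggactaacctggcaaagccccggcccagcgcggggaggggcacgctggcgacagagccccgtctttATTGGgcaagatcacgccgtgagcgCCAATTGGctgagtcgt
STARD4, chr5:111512591-111512785 (-): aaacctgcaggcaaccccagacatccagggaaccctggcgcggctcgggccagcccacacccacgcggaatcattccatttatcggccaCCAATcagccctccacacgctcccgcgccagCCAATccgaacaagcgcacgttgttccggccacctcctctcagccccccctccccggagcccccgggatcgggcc
SCD, chr10:100346983-100347123 (+): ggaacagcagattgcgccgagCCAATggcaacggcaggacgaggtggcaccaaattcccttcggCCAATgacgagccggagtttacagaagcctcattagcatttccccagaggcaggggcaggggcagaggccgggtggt
ELOVL7, chr5:60844390-60844519 (-): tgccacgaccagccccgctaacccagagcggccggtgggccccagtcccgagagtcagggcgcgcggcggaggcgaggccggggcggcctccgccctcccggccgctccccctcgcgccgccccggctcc
The full windows of MSMO1 and NSDHL held 4 and 5 matches, those of HMGCS1, STARD4 and SCD 2 each, and that of ELOVL7 none. Another HMGCS1 window, not shown, held 0. Some genes had more than 1 window, and a gene was counted below if any of its windows had a match. Over both strands, 20 of the 26 members with a promoter (76.9%) had at least 1 CCAAT, against 39.7% of all 27305 genes in the table. The share was 16 of 20 in the sterol arm (80%) and 4 of 6 in the fatty acid arm (66.7%). GGGCGG, the letters of Sp1 sites, stood in 24 of 26 (92.3%) against 48.3% of all genes, and the E-box CACGTG in 5 of 26 (19.2%) against 8.77%. The sterol regulatory element letters TCACNCCAC were in 1 of 26 (3.85%) against 1.39% of all genes. That 1 was SREBF2, where TCACCCCAC begins 133 bases before the start. A match to letters is a description of these windows and says nothing of binding in these cells.

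Per kilobase of exon, the fatty acid genes were the more abundant arm. SCD, which desaturates saturated fatty acyl-CoA, had the highest mean level of all 30 members at 267 CPM per kilobase and ranked 86 among the 34300 genes with a count. FASN, the fatty acid synthase, followed at 107, ELOVL5, an elongase of polyunsaturated chains, at 104, and ACLY, which supplies cytosolic acetyl-CoA, at 80.9. The most abundant sterol enzyme was FDFT1, the squalene synthase that commits isoprenoids to sterols, at 53.8, and the median over the 18 sterol enzymes was 21.5, against 80.9 over the 7 fatty acid genes. Among the regulators, SREBF2 lay at 49.3, INSIG1 at 39.2, SREBF1 at 38.4, STARD4, a soluble sterol carrier, at 14.8 and SCAP at 13.7. The lowest were ELOVL6, an elongase of saturated chains, at 2.67 and CYP51A1, the lanosterol demethylase, at 1.51. The CYP51A1 value is uncertain, because 82.2% of its exon positions also belong to other annotated genes, and ACAT2 shares 52.3% of its positions, FDPS 18.6%, IDI1 17.9% and HMGCS1 14.95%. Together the 30 genes took 0.528% to 0.740% of the counts of a library, and SCD and FASN made up 49.8% to 70.1% of the CPM of the fatty acid arm.

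The first comparison asked which of these genes differed between knockdown and control cells in each irradiation state. No member passed the test without pairing (adjusted p under 0.05), where 1.54% of all 17191 genes tested passed without irradiation and 0.297% after it. The lowest adjusted p among members was 0.173 (TM7SF2) and 0.489 (FASN). At an unadjusted p under 0.05 there were 2 members without irradiation (17.4% of all genes) and 1 after it (9.28%), and DESeq2 called 0 members in both states. Control and knockdown libraries of the same number deviated together, so they were also fitted as pairs, with the replicate number of each table as a block. The labels do not state this pairing. With that block 12 members passed without irradiation, 8 higher and 4 lower in knockdown, where 13.7% of all genes passed as higher and 14.1% as lower. After irradiation 5 members passed, all higher, where 5.43% of all genes passed as higher and 6.05% as lower. As a share of the 30 genes, the higher calls were 26.7% and 16.7%, and the lower calls without irradiation 13.3%, near the share of all genes. Without irradiated pair 2, and also without irradiated pair 3, the block called 0 members after irradiation.

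Averaged over both irradiation states, 17 members passed with the block, 13 higher and 4 lower, where 17.0% of all genes passed as higher and 17.3% as lower. Without the block none passed, where 6.52% of all genes did, and the lowest adjusted p was 0.0779 for FASN. The 13 higher genes were 10 of the 18 sterol enzymes (55.6%), namely HMGCS1, MVK, FDPS, SQLE, LSS, TM7SF2, MSMO1, NSDHL, HSD17B7 and EBP, with the carrier STARD4 and the fatty acid genes ACLY and FASN. The 4 lower genes were SC5D, the only sterol enzyme called lower, and SCD, ELOVL6 and ELOVL7 of the fatty acid arm. In the 6 fits that each left out 1 pair, the averaged calls of HMGCS1, TM7SF2, MSMO1, STARD4, FASN, SC5D and ELOVL6 passed every time, whereas LSS passed in 1 of 6, EBP in 2 of 6, MVK, FDPS, SQLE and ACLY in 3 of 6, HSD17B7 and SCD in 4 of 6, and NSDHL and ELOVL7 in 5 of 6. The averaged log2 fold changes of the 17 genes called ran from -0.37 (ELOVL7) to 0.41 (FASN).

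**Figure D1:**
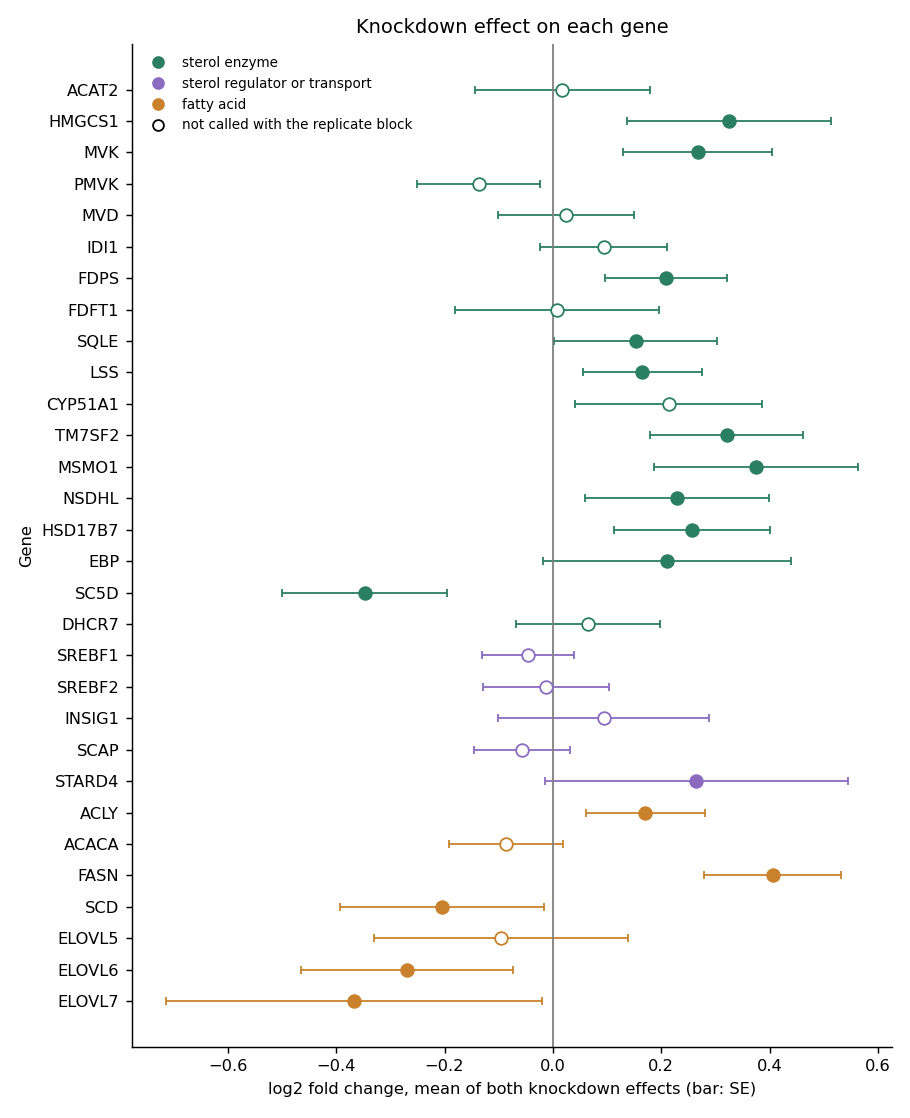
Knockdown against control averaged over both irradiation states, as log2 fold change (horizontal axis) for each of the 30 genes (rows); points are estimates from the 12 libraries without the block, bars 1 SE, and filled points mark the 17 genes called with the replicate block. The called sterol enzymes lie to the right of 0 except SC5D, and the fatty acid genes lie on both sides.

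Before the mevalonate step, HMGCS1, the HMG-CoA synthase, stood at 171, 106 and 99.8 CPM in the 3 non-irradiated controls and at 232, 133 and 104 CPM in the knockdowns of the same numbers. After irradiation it was at 165, 166 and 146 CPM in controls and 192, 215 and 195 CPM in knockdowns. The irradiated groups did not overlap, whereas the non-irradiated groups did, and the knockdown was higher in 6 of 6 pairs. The log2 fold changes were 0.32 ± 0.27 (SE, n = 3 against 3) and 0.33 ± 0.27, with adjusted p (edgeR) of 0.583 and 0.765 without the block and 0.0200 and 0.0176 with it. Without knockdown replicate 1 the non-irradiated value without the block was -0.08. HMGCS1, with MVK, MSMO1, NSDHL, EBP, SC5D, ELOVL7, FDFT1, INSIG1 and ELOVL5, is given by library because of its values, and was chosen after they were seen.

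FDPS, which makes farnesyl diphosphate for sterols and for protein prenylation, was at 97.4, 82.0 and 74.4 CPM in non-irradiated controls and 126, 107 and 101 CPM in knockdowns. These groups did not overlap, and the log2 fold change was 0.40 ± 0.16 (edgeR adjusted p = 0.226, with the block 0.00597). After irradiation the controls were at 148, 101 and 102 CPM and the knockdowns at 122, 117 and 116 CPM. Here the order was reversed in pair 1, the groups overlapped, and the log2 fold change was 0.02 ± 0.16 (edgeR adjusted p = 0.988), or 0.20 ± 0.13 without both irradiated libraries numbered 1. MVK, the mevalonate kinase, had the same pattern, at 35.5, 40.8 and 30.2 CPM against 54.3, 44.0 and 42.2 CPM without irradiation (block adjusted p = 0.0158) and with 5 of 6 pairs higher.

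Among the sterol enzymes of the later steps, TM7SF2, a sterol reductase of the endoplasmic reticulum, was at 82.6, 129 and 111 CPM in non-irradiated controls and at 119, 167 and 190 CPM in knockdowns, overlapping groups in which each knockdown was above its own control. The log2 fold change was 0.56 ± 0.20 (edgeR adjusted p = 0.173, with the block 0.00130). After irradiation TM7SF2 was at 156, 108 and 126 CPM against 142, 129 and 142 CPM, a log2 fold change of 0.08 ± 0.20, or 0.21 ± 0.24 without both libraries numbered 1.

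MSMO1, the methylsterol monooxygenase, was at 87.0, 64.3 and 51.2 CPM against 135, 76.1 and 59.5 CPM without irradiation, and at 97.6, 85.4 and 74.3 CPM against 110, 115 and 99.7 CPM after it. The knockdown was higher in 6 of 6 pairs, and the irradiated groups did not overlap. Its log2 fold changes were 0.42 ± 0.27 and 0.33 ± 0.27 without the block. With the block they were 0.37 ± 0.09 and 0.34 ± 0.09 (adjusted p = 0.0100 and 0.0273, edgeR). HSD17B7, a ketoreductase of sterol demethylation, was also higher in 6 of 6 pairs, at 51.4, 48.7 and 42.0 CPM against 64.9, 50.5 and 46.6 CPM, and after irradiation at 39.8, 54.8 and 50.6 CPM against 42.2, 71.5 and 68.3 CPM. Only the irradiated difference of HSD17B7 passed with the block (adjusted p = 0.0336), and 14.2% of its 50-base words also occur elsewhere in annotated exons.

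NSDHL, a sterol dehydrogenase, and EBP, the sterol isomerase, were separated without irradiation. NSDHL was at 27.8, 31.1 and 25.2 CPM in controls and 38.0, 35.2 and 33.6 CPM in knockdowns, and EBP at 37.9, 40.3 and 31.2 CPM against 50.8, 55.1 and 49.3 CPM. With the block both passed (adjusted p = 0.0112 and 0.0130, edgeR). After irradiation EBP was at 98.8, 37.4 and 40.5 CPM in controls and 75.3, 45.9 and 45.3 CPM in knockdowns, so that its number 1 libraries lay far above the others and pair 1 ran the other way. Its irradiated log2 fold change was -0.08, or 0.23 ± 0.12 without both of those libraries.

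SC5D, a sterol desaturase near the end of the pathway, went the opposite way to the other called sterol enzymes. It was at 162, 142 and 126 CPM in non-irradiated controls and 136, 98.3 and 78.3 CPM in knockdowns, and at 104, 161 and 125 CPM against 92.0, 130 and 110 CPM after irradiation. The knockdown was lower in 6 of 6 pairs although the groups overlapped in both states. The log2 fold changes were -0.46 ± 0.22 and -0.24 ± 0.21 without the block. With the block they were -0.49 ± 0.08 and -0.23 ± 0.08 (adjusted p = 0.00114 and 0.0810, edgeR). CYP51A1, at 3.88 to 5.84 CPM without irradiation and 5.38 to 11.1 CPM after it, gave log2 fold changes of 0.07 ± 0.25 and 0.36 ± 0.24, neither of which passed with the block (adjusted p = 0.833 and 0.207). SQLE, the squalene epoxidase, was higher in 6 of 6 pairs. Besides CYP51A1, 6 sterol enzymes were not called in the averaged fit: PMVK was lower in 5 of 6 pairs, IDI1 higher in 5, ACAT2, MVD and FDFT1 higher in 4, and DHCR7 higher in 3.

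Of the 5 regulators and carriers, only STARD4 passed with the block. SREBF1 was at 294, 314 and 262 CPM in non-irradiated controls and 252, 293 and 264 CPM in knockdowns, and at 353, 294 and 362 CPM against 340, 319 and 357 CPM after irradiation. The groups overlapped in both states, with log2 fold changes of -0.10 ± 0.12 and 0.01 ± 0.12. SREBF2, SCAP and INSIG1 were between -0.08 and 0.15, and none of these passed with the block. STARD4 was at 108, 69.8 and 44.0 CPM against 117, 70.7 and 49.1 CPM without irradiation and 52.8, 96.1 and 87.0 CPM against 62.1, 137 and 119 CPM after it. Its spread between libraries of a group was wide, but each knockdown lay above its own control in 6 of 6 pairs. The irradiated log2 fold change was 0.43 ± 0.40 (edgeR adjusted p = 0.813, with the block 0.00387) and the non-irradiated one 0.10 ± 0.40 (with the block 0.318).

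In the fatty acid arm, FASN and SCD, the most abundant members, went apart. FASN was at 874, 740 and 653 CPM in non-irradiated controls and at 1130, 1001 and 828 CPM in knockdowns, then at 922, 855 and 1137 CPM in irradiated controls and 1070, 1303 and 1542 CPM in irradiated knockdowns. Each knockdown lay above its own control, by 0.215 to 0.607 on the log2 scale, though the groups overlapped in both states. The log2 fold changes were 0.38 ± 0.18 and 0.43 ± 0.18 (edgeR adjusted p = 0.294 and 0.489, with the block 0.00489 and 0.00733). ACLY was higher in 6 of 6 pairs, at 387, 400 and 366 CPM against 479, 411 and 423 CPM and at 505, 351 and 375 CPM against 537, 418 and 412 CPM, and passed only in the averaged fit with the block (adjusted p = 0.0213).

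SCD was at 1680, 1622 and 1117 CPM in non-irradiated controls and 1324, 1184 and 933 CPM in knockdowns, lower in 3 of 3 pairs with overlapping groups. The log2 fold change was -0.36 ± 0.27 (edgeR adjusted p = 0.524, with the block 0.00423). After irradiation it was at 1024, 1820 and 1902 CPM against 1069, 1762 and 1763 CPM, a log2 fold change of -0.05 ± 0.27 (with the block 0.813). The ratio of FASN to SCD CPM was 0.520, 0.456 and 0.584 in non-irradiated controls and 0.854, 0.845 and 0.888 in knockdowns. After irradiation it was 0.900, 0.470 and 0.598 against 1.00, 0.739 and 0.875. The ratio was higher in knockdown in 6 of 6 pairs and the non-irradiated groups did not overlap; it was chosen after the values were seen and has no test.

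The 3 elongases had estimates below 0 in both states. ELOVL7, an elongase of long chains that androgen is known to induce in prostate cancer cells, was at 144, 83.9 and 104 CPM against 76.3, 65.7 and 91.0 CPM without irradiation and at 344, 118 and 110 CPM against 297, 101 and 92.5 CPM after it. It was lower in 6 of 6 pairs, with log2 fold changes without the block of -0.51 ± 0.49 and -0.22 ± 0.49. The adjusted p with the block were 0.0153 and 0.234 (edgeR). The 2 irradiated number 1 libraries of ELOVL7 were 3.02 and 3.06 times the mean of the other 2. Without irradiated control replicate 1 its irradiated log2 fold change without the block was 0.52. ELOVL6 was lower in 6 of 6 pairs at 11.2 to 29.7 CPM (block adjusted p = 0.0452 and 0.111), and ELOVL5 in 4 of 6. ACACA, which makes malonyl-CoA, gave log2 fold changes of -0.11 ± 0.15 and -0.07 ± 0.15.

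**Figure D2:**
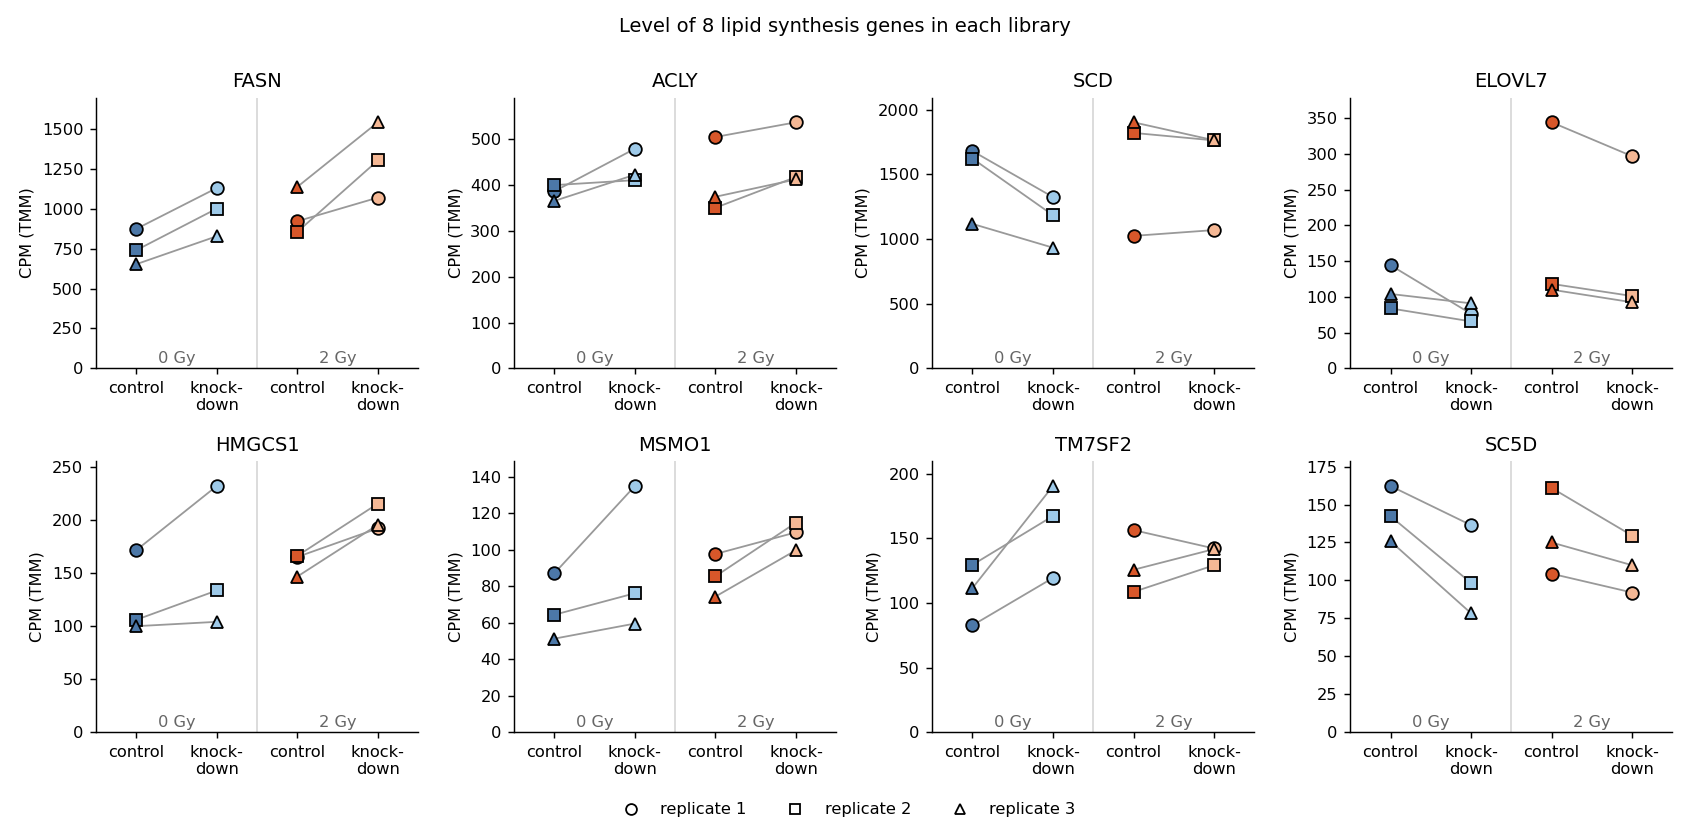
Level of 8 genes in each of the 12 libraries, in CPM after TMM scaling (vertical axis), by group (horizontal axis); symbols give the replicate number and lines join libraries of the same number. FASN, ACLY, HMGCS1 and MSMO1 go up along every line, SC5D and ELOVL7 go down along every line, and SCD and TM7SF2 each have 1 irradiated line that runs the other way.

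Of the 30 genes, 7 were higher in all 6 pairs (HMGCS1, SQLE, MSMO1, HSD17B7, STARD4, ACLY and FASN) and 3 lower in all 6 (SC5D, ELOVL6 and ELOVL7), where 14.4% of all genes tested were higher and 14.4% lower. Groups without overlap were fewer. Without irradiation 5 members were higher in all 3 knockdowns than in any control (MVK, FDPS, NSDHL, EBP and ACLY; 15.4% of all genes) and none was lower (15.8%). After irradiation 2 were higher (HMGCS1 and MSMO1; 5.82% of all genes) and none was lower (7.72%). No member was separated in both states, where 2.77% of all genes were as higher and 3.67% as lower.

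**Figure D3:**
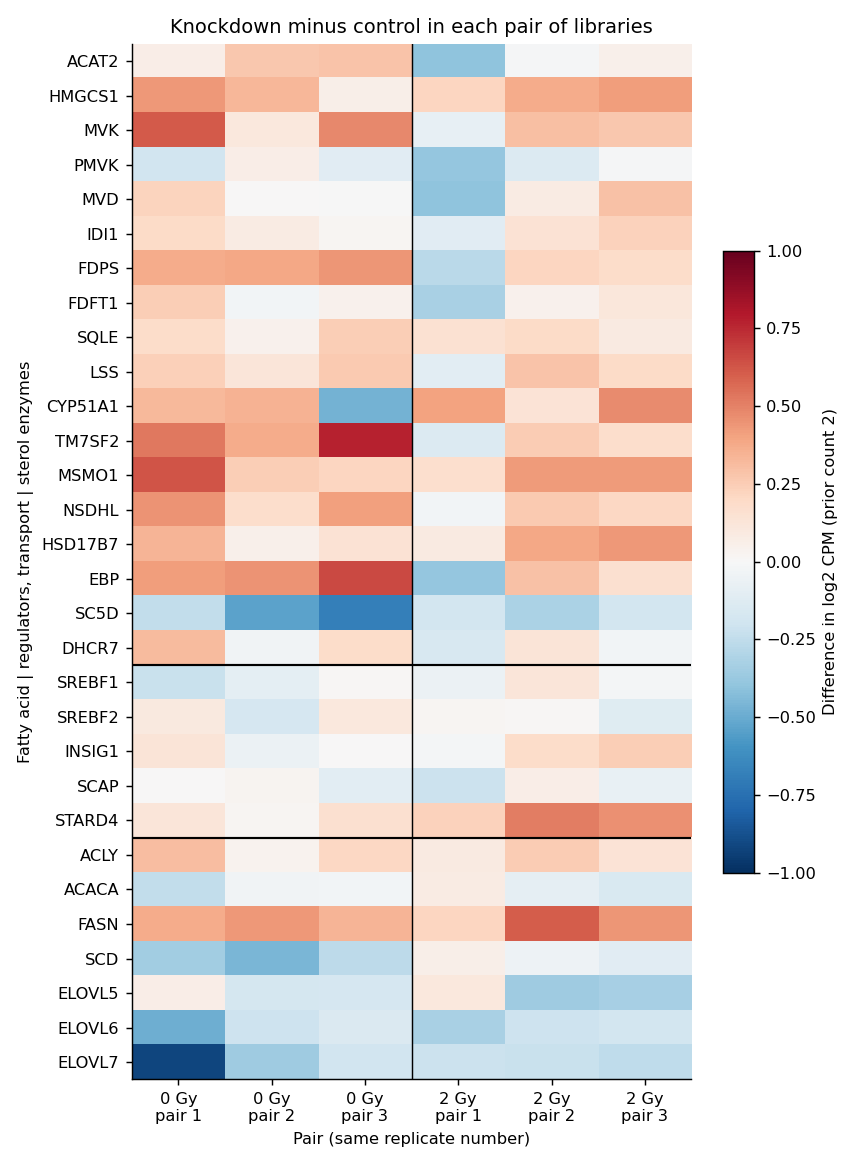
Knockdown minus control in each of the 6 pairs of libraries (columns), as difference in log2 CPM with a prior count of 2 (colour), for the 30 genes (rows: sterol enzymes, then regulators and transport, then fatty acid genes). Red marks a higher level in the knockdown; the sterol enzymes are mostly red except in irradiated pair 1.

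The 2 arms were then compared by the median over their genes. Without irradiation the median log2 fold change was 0.16 over the sterol arm, 0.19 over its 18 enzymes and -0.11 over the fatty acid arm, against 0.00 over all genes tested. After irradiation it was 0.08 and -0.07 over the sterol and fatty acid arms, against -0.01 over all genes. Of the 18 sterol enzymes, 16, 15 and 14 were higher in the knockdown of the 3 non-irradiated pairs, and 5, 15 and 15 in the irradiated pairs. The mean log2 CPM of the sterol arm differed by 0.229, 0.095 and 0.136 in the non-irradiated pairs and by -0.087, 0.171 and 0.173 in the irradiated pairs. That of the fatty acid arm differed by -0.178, -0.107 and -0.033, and by 0.002, -0.008 and -0.065. In the sterol arm irradiated pair 1 was thus the exception. Without both irradiated libraries numbered 1 the irradiated sterol median was 0.20 and the fatty acid median -0.13. With 1 library left out at a time, without the block, the irradiated sterol median ranged from -0.054 to 0.197, so its sign was not stable. Without irradiated control replicate 1 alone the fatty acid median was 0.14. Without non-irradiated knockdown replicate 1 the non-irradiated medians were -0.022 and -0.36. The arm means of the groups overlapped: the sterol mean was 6.10 ± 0.18 (SD, n = 3) in non-irradiated controls and 6.25 ± 0.22 in knockdowns.

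**Figure D4:**
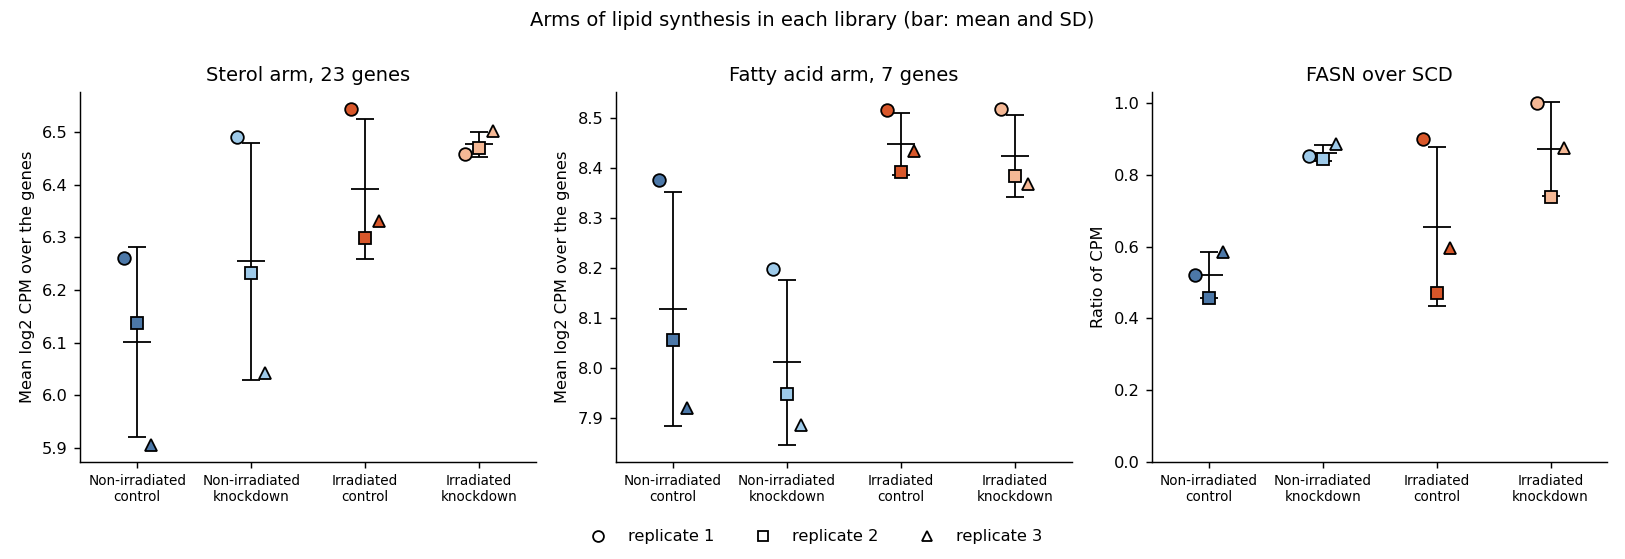
Mean log2 CPM of the sterol arm (left) and of the fatty acid arm (middle), and the ratio of FASN to SCD CPM (right), in each library by group, with the mean and SD of each group of 3 as bars. The FASN to SCD ratio of non-irradiated controls, 0.456 to 0.584, lies below that of non-irradiated knockdowns, 0.845 to 0.888.

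The difference between the knockdown effects in the 2 irradiation states was tested for each gene. None of the 30 passed (edgeR), and 0 were at an unadjusted p under 0.05, where 350 of all genes (2.04%) were and none passed the adjusted threshold (0.0%). With the block the lowest adjusted p among the members was 0.245 and none passed; DESeq2 also called 0 members. The largest difference in size was that of EBP, whose knockdown effect after irradiation minus that without it was -0.59 on the log2 scale. Without both irradiated libraries numbered 1 it was -0.27, and the largest in size was that of STARD4, 0.40.

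The second comparison set irradiated against non-irradiated cells. The 2 irradiation states were deposited in separate tables, so an effect of 2 Gy and one of the table or its sequencing cannot be told apart. No member passed in controls or in knockdowns, where 2.26% and 3.58% of all genes did, and the lowest adjusted p were 0.0911 (FDFT1, controls) and 0.108 (CYP51A1, knockdowns), each of which DESeq2 called. At an unadjusted p under 0.05 there were 5 members in each (21.8% and 20.9% of all genes). The estimates were above 0 for 28 of 30 members in controls and 27 of 30 in knockdowns, but for 19 and 18 when libraries were scaled by their totals alone, a scaling that moved the median of all genes to -0.16 and -0.15. The sterol and fatty acid medians were 0.33 and 0.36 in controls and 0.17 and 0.42 in knockdowns, against 0.00 over all genes. Without both irradiated libraries numbered 1 they were 0.17 and 0.33 in controls and 0.20 and 0.32 in knockdowns, and the order of the 2 sterol medians turned.

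FDFT1 was at 244, 189 and 154 CPM in non-irradiated controls and 504, 301 and 297 CPM in irradiated controls, and at 290, 185 and 159 CPM against 403, 309 and 322 CPM in knockdowns. The groups did not overlap in either comparison, and the log2 fold changes were 0.91 ± 0.27 and 0.71 ± 0.27 (edgeR adjusted p = 0.0911 and 0.159). INSIG1 was at 144, 109 and 74.8 CPM against 150, 190 and 160 CPM in controls and 158, 104 and 75.1 CPM against 148, 215 and 190 CPM in knockdowns, with log2 fold changes of 0.61 ± 0.28 and 0.71 ± 0.28; its groups were separated in controls and overlapped in knockdowns. ELOVL5 was at 392, 279 and 274 CPM against 668, 452 and 389 CPM in controls and at 412, 247 and 244 CPM against 721, 354 and 308 CPM in knockdowns. Its log2 fold changes were 0.68 ± 0.33 and 0.62 ± 0.33, with 1 irradiated control below the highest non-irradiated control and 2 irradiated knockdowns below the highest non-irradiated knockdown. Without both irradiated libraries numbered 1 the values were 0.41 and 0.14 for ELOVL5, 0.61 and 0.58 for FDFT1 and 0.67 and 0.85 for INSIG1. Members separated as higher after irradiation were MVD, FDPS, FDFT1 and INSIG1 in controls (13.7% of all genes) and FDFT1, CYP51A1, SREBF1 and ELOVL7 in knockdowns (15.8%).

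**Figure D5:**
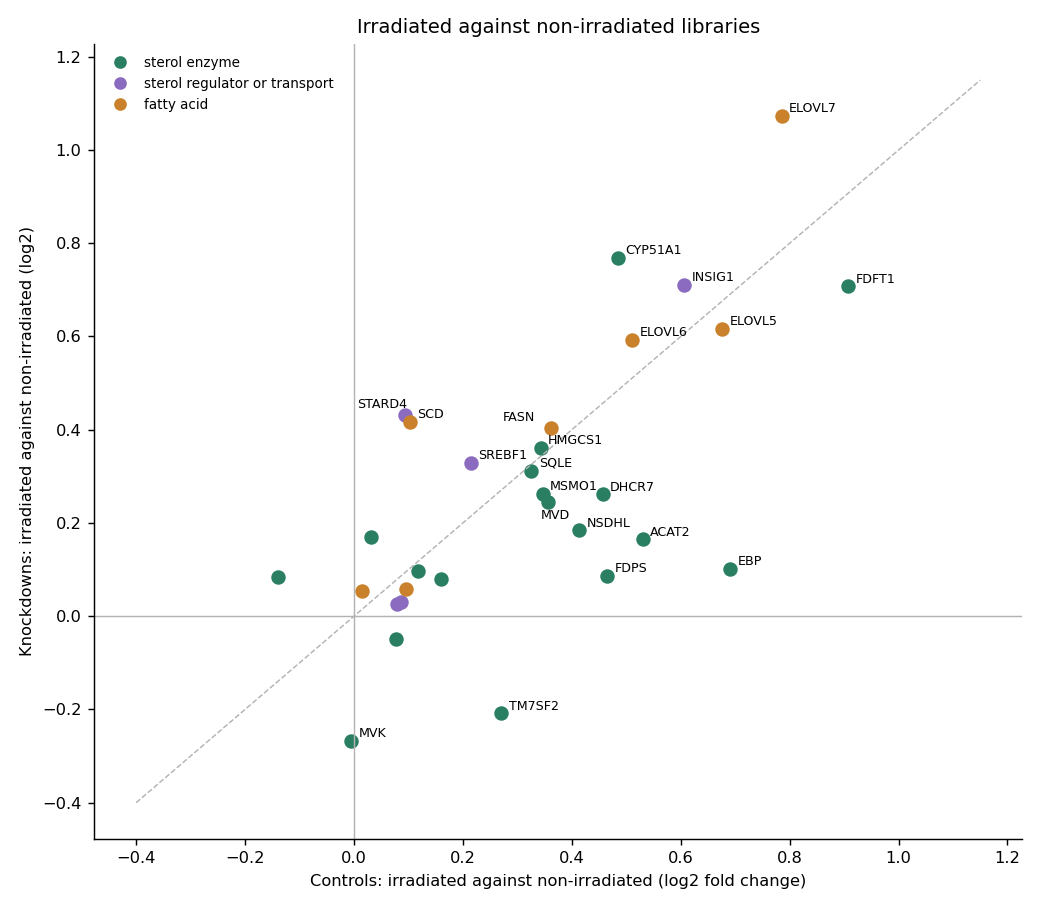
Irradiated against non-irradiated libraries as log2 fold change in controls (horizontal axis) and in knockdowns (vertical axis) for the 30 genes; the dashed line marks equal values and colours the roles. Most genes lie above 0 on both axes under TMM scaling, with ELOVL7, FDFT1, INSIG1 and ELOVL5 farthest out, and no gene passed the test in either comparison. Without both irradiated libraries numbered 1, ELOVL7 was at 0.04 in controls and 0.32 in knockdowns.

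The number 1 libraries of both states moved this comparison. The non-irradiated ones had root mean square log2 differences of 0.504 (control) and 0.530 (knockdown), against 0.379 to 0.411 for the others of their groups. In the irradiated number 1 libraries CPM was 2.54 and 1.65 times the mean of the other 2 libraries for EBP and 1.59 and 2.18 times for ELOVL5, in controls and knockdowns. It was 0.550 and 0.607 times for SCD and 0.577 and 0.485 times for STARD4. Without the 4 libraries numbered 1, an alternative chosen after seeing the data, 10 members were called higher in controls, where 8.1% of all genes were. They were HMGCS1, FDPS, FDFT1, SQLE, MSMO1, DHCR7, INSIG1, FASN, ELOVL5 and ELOVL6. In knockdowns 14 members were called higher, where 10.6% of all genes were, and TM7SF2 lower. In that fit FDFT1 gave log2 fold changes of 0.79 ± 0.11 and 0.87 ± 0.11 (SE, edgeR adjusted p = 0.000271 and 8.71e-05, 2 libraries a group), and INSIG1 0.92 ± 0.18 and 1.17 ± 0.18. Without only the 2 irradiated libraries numbered 1, no member was called in controls (4.97% of all genes), and CYP51A1 and SCD were called in knockdowns, both higher (10.3% of all genes).

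Other genes of lipid metabolism were read from lists that do not overlap the 30. Of 20 other sterol genes, none passed without the block in either knockdown comparison, and their median log2 fold changes were 0.06 and 0.07. The smallest p were those of STARD3, a carrier of late endosomes, and GGPS1, which makes geranylgeranyl diphosphate, without irradiation, and MYLIP and ABCG1 after it. STARD3 was at 32.2, 38.5 and 33.5 CPM against 45.4, 45.7 and 44.2 CPM, and GGPS1 at 92.7, 111 and 105 CPM against 89.4, 76.5 and 64.8 CPM. With the block 3 of the 20 were higher and 4 lower without irradiation (13.7% and 14.1% of all genes), and 3 were higher and 1 lower after it (5.43% and 6.05%). Of 24 other fatty acid genes tested out of 25, none passed without the block, and with it 5 were higher and 7 lower without irradiation (13.7% and 14.1% of all genes), and 1 was higher and 1 lower after it (5.43% and 6.05%). Among them ACSS2, which makes acetyl-CoA from acetate, was at 60.3, 62.8 and 55.0 CPM against 78.7, 80.6 and 75.1 CPM, and ME1, the cytosolic malic enzyme that yields NADPH, at 170, 166 and 122 CPM against 139, 68.3 and 48.4 CPM. DGAT2, the last step of triglyceride synthesis, passed as higher with the block in both states (adjusted p = 0.00490 and 0.00777, edgeR). Its log2 fold changes without the block were 0.37 ± 0.22 and 0.38 ± 0.22.

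Of 15 genes of fatty acid oxidation, HADH rose and DECR1 fell in the averaged knockdown effect without the block. Their log2 fold changes were 0.33 ± 0.09 and -0.24 ± 0.06 (edgeR adjusted p = 0.0442 and 0.0460). No other gene of the 15 was called without the block, where 2.32% of all genes passed as higher and 4.2% as lower. With the block the averaged effect called 5 of the 15 higher and 3 lower. It called 6 of the 20 other sterol genes higher and 4 lower, and 5 of the 24 other fatty acid genes higher and 7 lower. Of all genes, 17.0% passed as higher and 17.3% as lower in that fit. HADH, a dehydrogenase of mitochondrial beta oxidation, was at 78.2, 79.8 and 78.3 CPM in non-irradiated controls and 98.5, 111 and 117 CPM in knockdowns. AMACR, a racemase of branched-chain acids and a prostate cancer marker, rose after irradiation in both comparisons. Its log2 fold changes were 1.97 ± 0.30 and 1.67 ± 0.29 (edgeR adjusted p = 0.0120 and 0.0162). It was the only gene of the 15 called in each, where 1.38% and 2.18% of all genes passed as higher. It was at 4.53, 3.16 and 2.68 CPM in non-irradiated controls and 11.6, 14.5 and 14.2 CPM in irradiated controls. MID1IP1, an activator of acetyl-CoA carboxylase, rose after irradiation in knockdowns, by 0.77 ± 0.18 (edgeR adjusted p = 0.0414). It was the only call among the 24 other fatty acid genes there, where 2.18% of all genes passed as higher.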

How the data were processed

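Read counts per gene in 2 tables, one per irradiation state, were deposited by the authors. Per the submitters' processing notes, the tools were STAR 2.5, featureCounts of Subread 1.5.3 and edgeR 3.20.8, with GRCh38; use of strand in counting is not given in the sources used here. These raw counts were joined by gene identifier. CPM values use TMM-scaled library sizes. The main test was edgeR 4.0.16 (R 4.3.3) with robust quasi-likelihood fits over all 12 libraries, filterByExpr (minimum count 10, minimum total 15) and Benjamini-Hochberg adjustment over 17191 genes; DESeq2 1.42.0 was an alternative. SE is the log2 fold change over the root of F. Log2 fold changes and SE are from the fit without the block unless stated, also beside a p-value from the block. Tests were checked on simulated counts without pairs or outlying libraries, and with larger changes than the knockdown changes of the members. That check does not bear on the calls of members.

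Same-numbered libraries were taken as pairs within each table, although the labels do not say what the numbers stand for. Their deviations from group means correlated at 0.233 to 0.296 (non-irradiated) and 0.607 to 0.775 (irradiated). Other numbers gave -0.178 to -0.068 and -0.677 to 0.476, with means of -0.127 and -0.279. Irradiated numbers 2 and 3 also correlated with each other, at 0.396 and 0.476. Centring each group on its own mean by itself lowers the values for other numbers, so their means are no independent contrast. The paired fit has 4 residual degrees of freedom.

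The rule for genes given by library took members called in a main comparison or separated in both states (none), and those of smallest p: 2 sterol enzymes, 1 regulator and 2 fatty acid genes per knockdown comparison; others were added after their values were seen. Members and lists were chosen with earlier results of these data known. Overlaps of exons were taken from the exon positions deposited with the counts, and the 50-base words from the transcripts of GENCODE 29.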

Additional observations from a re-analysis of the deposited data

How the results depend on the processing

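The number of genes called depended on the tool and on the libraries used, and the cause was not tested. Without the block the counts were 265, 51, 389, 615, 0 and 1120 for the knockdown without irradiation, the knockdown after it, irradiation in controls, irradiation in knockdowns, the difference of the knockdown effects and their mean, with no member in any of the 6. DESeq2 gave 1047, 273, 1377, 1438, 1 and 2035 genes, with 1 member called in each irradiation comparison (FDFT1 in controls, CYP51A1 in knockdowns) and 1, FASN, in the mean. Fitting only the groups compared gave 1486, 1, 64 and 344 genes in the first 4 comparisons, with 1 member, EBP, in the first, and gave no value for the other 2. Without the filter on low counts irradiation in controls gave 592 genes. With library size alone it gave 614, of which 170 were higher and 444 lower, against 238 and 151 under TMM.

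With the replicate block the counts were 4776 genes and 12 members without irradiation, 1974 and 5 after it, and 5894 and 17 in the mean. The block changed no other call of a member, apart from irradiation, where numbers do not pair the tables (correlations of -0.150 to 0.143 between same-numbered libraries). There it gave 965 genes and 3 members in controls (FDPS, FDFT1 and ELOVL5) and 1157 and 2 in knockdowns (FDFT1 and ELOVL5). The following were chosen after seeing the data. The block with DESeq2 gave 3630 genes and 11 members, 1471 and 5, and 4400 and 15 in the same 3 comparisons, and 65 genes for the difference. The block over the 6 libraries of a table gave 3622 and 9, then 2887 and 7.

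Without both irradiated libraries numbered 1 the counts were 2564, 326, 868, 1806 and 3378 genes, the difference apart, with 3 members called without irradiation (FDPS, NSDHL and EBP), 2 in irradiated against non-irradiated knockdowns and 6 in the mean. Without the 4 libraries numbered 1 they were 3525, 1461, 2593, 3628, 307 and 4761 genes. Members called were then 4 without irradiation (FDPS, TM7SF2 and EBP higher, SC5D lower), 2 after it (HSD17B7 and FASN), 10 and 15 for irradiation and 11 in the mean.

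Leaving out 1 library, or 1 pair with the block, gave 31 to 5234, 4 to 3449, 24 to 648, 76 to 1489, 0 to 712 and 440 to 6674 genes in the order above, the irradiation comparisons without the block. Members ranged from 0 to 14 without irradiation, 0 to 8 after it, 0 to 1 in the difference and 0 to 18 in the mean. Without the block the only such fit that called members was the mean without irradiated control replicate 1, with 4 (MVK, FDPS, NSDHL and EBP). The non-irradiated medians ranged from -0.022 to 0.298 (sterol) and -0.357 to -0.035 (fatty acid). The irradiated medians ranged from -0.054 to 0.198 (sterol) and -0.123 to 0.137 (fatty acid). Those of the difference ranged from -0.179 to 0.041 (sterol) and -0.058 to 0.222 (fatty acid). Signs of single genes also turned, but those of HMGCS1, which the block had called, STARD4 and ELOVL7 turned only in fits without the block. With the block and 1 pair left out, HMGCS1 stayed at 0.197 to 0.386 and STARD4 at 0.069 to 0.139 without irradiation. ELOVL7 stayed at -0.251 to -0.223 after irradiation. The ranges of single genes that follow join both kinds of fit. Without irradiation CYP51A1 ranged from -0.091 to 0.341 (-0.075 without the 4 libraries numbered 1), STARD4 from -0.297 to 0.468 and HMGCS1 from -0.080 to 0.603. After it FDPS ranged from -0.093 to 0.227, TM7SF2 from -0.052 to 0.235, SREBF1 from -0.095 to 0.058 (-0.0044 without the filter), SCD from -0.281 to 0.148 and ELOVL7 from -0.996 to 0.523. In edgeR's fit over all 12 libraries no member passed without pairs, at 3 libraries a group, and the lowest level, that of CYP51A1, rested on 3.88 to 11.1 CPM.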
